A study of Homo sapiens with 6 samples.

Results

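Growth factor signaling from the FGF receptor through PI3K and AKT and through the RAF-MEK-ERK cascade was represented by 7 genes, *FGFR1*, *PIK3CA*, *PIK3R1*, *AKT1*, *SGK1*, *MAP2K1* and *MAPK3*, out of 21863 gene symbols with deposited values. They were chosen by name, as growth factor signaling genes of which several have been described as targets of the miRNA family studied, and not by their values. No RAF gene is among the 7, and *ARAF* and *BRAF* are described below as relatives. The RNA came from Hep G2, a line of human liver tumor cells, in 3 conditions: transfected with a mimic of *miR-195*, transfected with a mimic of *miR-497*, and non-transfected. The mimics were used at 5 nM for 24 hours. The non-transfected cells are listed at 0 hours, with no time in their source names. Each condition gave 1 Ago2-IP library (Ago2-IP-seq, RNA precipitated with Argonaute2) and 1 total RNA library (mRNA-seq), 6 libraries in all. With 1 library per group no spread between cultures can be given and no test between conditions is possible. The reference cells received no mimic, no transfection and, going by the listed 0 hours, no day in culture after it. These 3 differences cannot be told apart, and both mimic comparisons share the same non-transfected libraries.

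FGF receptors are tyrosine kinases at the cell surface that bind fibroblast growth factors. Through adaptor proteins they switch on RAS, which starts the RAF, MEK and ERK kinase cascade that drives cells into the division cycle. In parallel, PI3K makes a membrane lipid that brings the kinases AKT and SGK to activation, which favors growth and survival, and liver tumors often use both routes. A miRNA loaded into Argonaute2 pairs through its seed, bases 2 to 8, with sites in the 3′UTR of mRNAs, and such pairing usually lowers translation and mRNA stability.

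The mature sequences of the miRNAs that the mimics are named for are shown because their shared seed sets which sites are matched. They are from RefSeq on GRCh38.p14, where *miR-195* lies at chr17:7017667-7017687 and *miR-497* at chr17:7017979-7017999, both on the minus strand, and the seed is in capitals.
hsa-miR-195-5p: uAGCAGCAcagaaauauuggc
hsa-miR-497-5p: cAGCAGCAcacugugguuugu
All 7 seed bases were the same in both, and of the 21 positions 12 had the same base. A DNA site that pairs with the seed reads TGCTGCT, and a match of 8 bases, TGCTGCTA, adds an A opposite base 1 of the miRNA.

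The 3′UTRs of the 7 genes differed in these matches. TGCTGCT occurred in a 3′UTR of *FGFR1*, *PIK3R1*, *SGK1*, *MAP2K1* and *MAPK3*, that is in 5 of 7, and in 25.3% of all 18191 genes with an annotated 3′UTR. The 8-base match was present in *PIK3R1*, *SGK1* and *MAP2K1*, 3 of 7, against 5.14% of all genes. Several of the 7 were chosen as described targets of this miRNA family, so these shares are not independent of the choice. The matches that lie in the canonical transcripts of *PIK3R1*, *SGK1*, *MAP2K1* and *MAPK3* are printed below, and those of *FGFR1* are given by position only. The stretches are from GRCh37, the assembly also called hg19, with the 7-base match in capitals and 11 bases on each side, since they are the stretches to which either mimic could pair.
PIK3R1, chr5:67597154-67597182, plus strand: gctgcccaggaTGCTGCTatatatatata
SGK1, chr6:134490730-134490758, minus strand: aaagaaagcatTGCTGCTacaaatatttc
MAP2K1, chr15:66783405-66783433, plus strand: gaagcatgcttTGCTGCTatgaaaatgag
MAPK3, chr16:30125791-30125819, minus strand: tctcccgctgcTGCTGCTgcgcccttacc
MAPK3, chr16:30125794-30125822, minus strand: caatctcccgcTGCTGCTgctgcgccctt
The site of *PIK3R1* lay 3736 bases into a 3′UTR of 4220 bases, near its end, that of *SGK1* at 659 of 1012 bases and that of *MAP2K1* at 463 of 929 bases. In *MAPK3* the printed stretches overlap, because a repeat of GCT matches at 251 and at 254 of 636 bases, so that 1 pairing at a time can form there. In *FGFR1*, whose 3′UTR has 2485 bases, matches started at 886 and 889, again overlapping, and at 2052. *PIK3CA* held only the 6-base core GCTGCT, once, at 3115 of 5729 bases, a core that 45.9% of genes have. *AKT1* held neither word in its 3′UTR of 992 bases.

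The matches were not in every annotated transcript of their genes. Of the coding transcripts, 10 of 10 carried the site of *MAP2K1*, 9 of 24 that of *PIK3R1*, 4 of 10 that of *SGK1*, 3 of 8 those of *MAPK3* and at most 10 of 23 those of *FGFR1*. For *PIK3CA* the gene length implied by the deposited values, 3704 bases, was shorter than the annotated 3′UTR alone, so most of that 3′UTR was outside the counted sequence. Of the 7 genes, 6 are placed here on the genome, at chr3:178865902-178957881 (*PIK3CA*), chr5:67511569-67597649 (*PIK3R1*), chr14:105235686-105262088 (*AKT1*), chr6:134490388-134639250 (*SGK1*), chr15:66679250-66783994 (*MAP2K1*) and chr16:30125426-30134827 (*MAPK3*) on GRCh37. A match says that the letters are present, and binding at these positions was not measured.

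**Figure D1:**
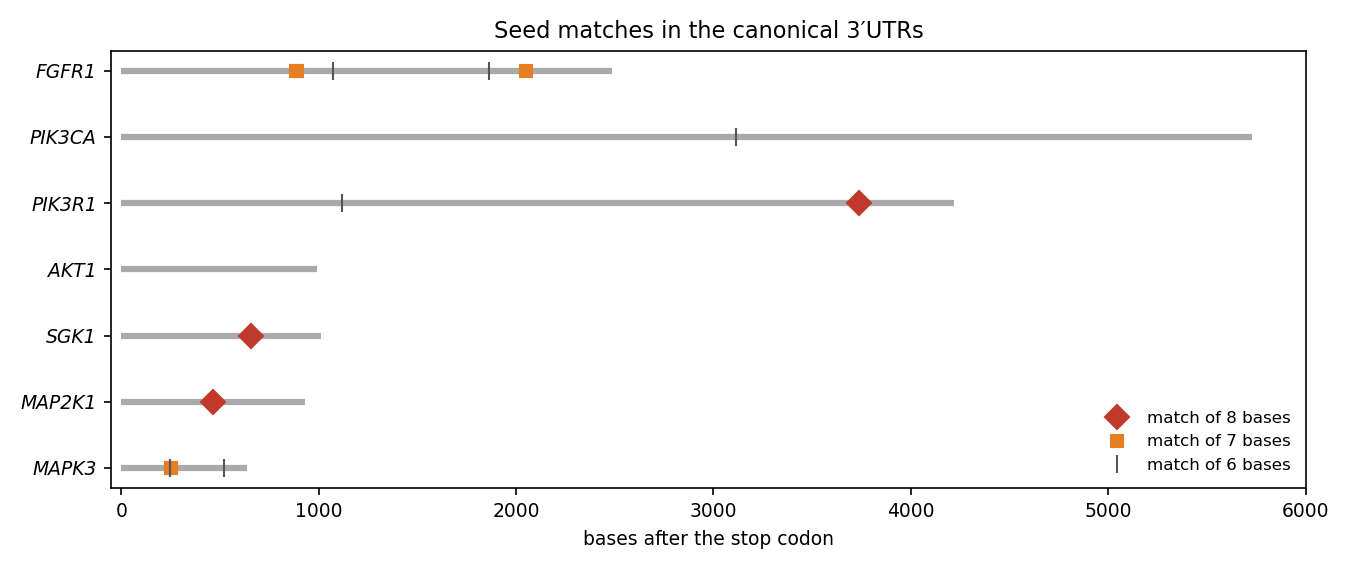
Seed matches along the canonical 3′UTR of each gene, in bases after the stop codon, with grey bars drawn to the length of the 3′UTR and markers for matches of 8, 7 and 6 bases. *PIK3R1*, *SGK1* and *MAP2K1* carry an 8-base match, overlapping matches of *FGFR1* and *MAPK3* are drawn over each other, and *AKT1* has none.

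Values are RPKM, read numbers scaled to gene length and to the mapped reads of the library, as the authors deposited them, so that levels can be compared between genes per length. Read numbers were inferred from the steps in the RPKM values, and the intervals in the following text are 95% counting intervals made from them, which hold counting error only and no variation between cultures. For *MAP2K1* no whole read numbers could be inferred, and its values carry no interval. Over the genes with inferred reads, 26108023 to 36322981 reads were inferred per total RNA library and 3298312 to 7122950 per Ago2-IP library, the fewest with *miR-497*. All 7 genes were above 1 RPKM in all 6 libraries. In total RNA, 9 of 10 liver-line markers lay between 25.3 and 4884 RPKM in every library, transthyretin (*TTR*) was at 1.52 to 4.81, the leukocyte gene *PTPRC* was listed at 0 and *COL1A1* and *PECAM1* did not exceed 0.412 RPKM. A level is an average over the culture, in which fewer expressing cells and less RNA per cell cannot be told apart.

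In non-transfected total RNA the order of the levels per length, from high to low, was *SGK1*, *AKT1*, *MAP2K1*, *FGFR1*, *MAPK3*, *PIK3CA* and *PIK3R1*. The levels ran from 38.8 RPKM (37.6 to 40.1) for *SGK1* to 6.80 RPKM (6.41 to 7.20) for *PIK3R1*. Of the neighbors in this order, *FGFR1* at 17.0 RPKM (16.4 to 17.7) and *MAPK3* at 15.7 RPKM (14.4 to 17.0) had intervals that overlapped, and *MAP2K1* could not be placed with an error. The PI3K subunits thus had the lowest transcript levels of the 7, and *SGK1* and *AKT1* the highest. In Ago2-IP of non-transfected cells *SGK1* was again highest, at 19.3 RPKM, and *MAPK3* lowest, at 1.52 RPKM.

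**Figure D2:**
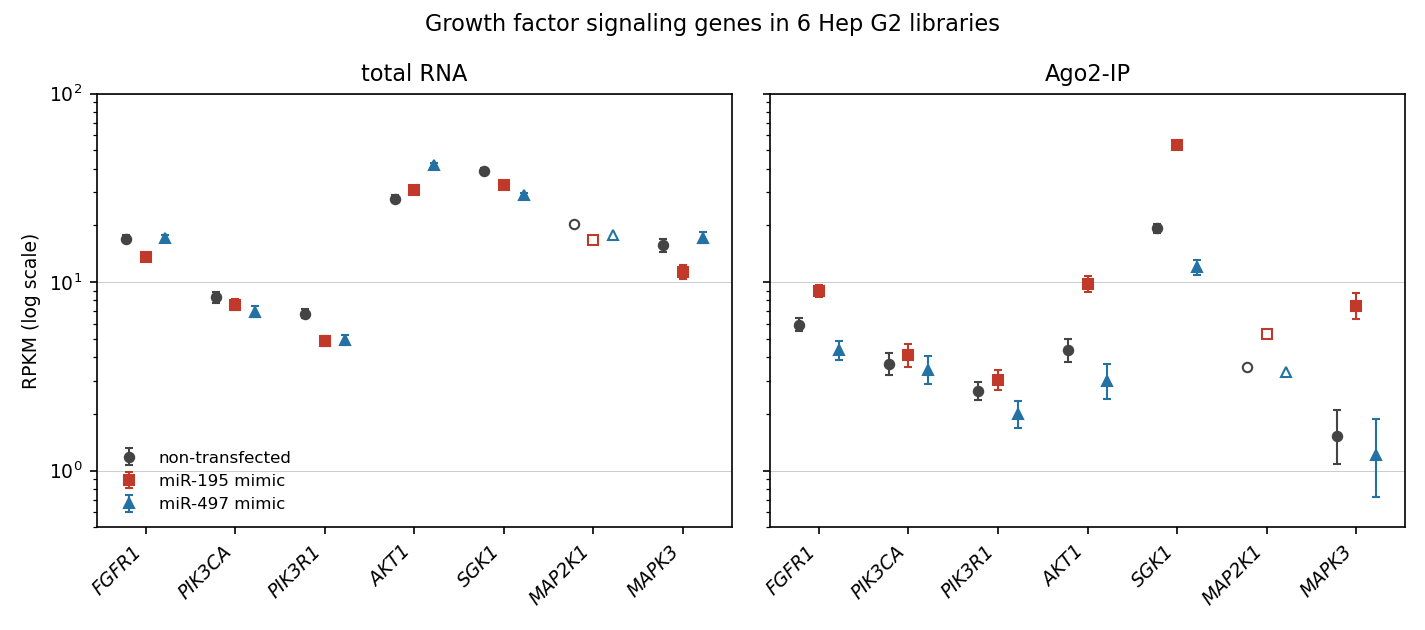
RPKM of the 7 genes on a log axis in total RNA (left) and Ago2-IP (right), with 1 point per library and bars for 95% counting intervals; open symbols mark *MAP2K1*, which has none. In Ago2-IP the *miR-195* library is highest for each gene and the *miR-497* library lowest, with the widest separation for *SGK1* (12 to 53.2 RPKM) and *MAPK3* (1.20 to 7.48 RPKM).

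*FGFR1*, the receptor of the group, stood at 17.0 RPKM in total RNA before transfection, at 13.5 under the *miR-195* mimic and at 17.1 under the *miR-497* mimic. Its *miR-195* level was the low one, a ratio of 0.795 (0.753 to 0.840), while the *miR-497* ratio of 1.01 had an interval of 0.957 to 1.06 that includes no difference. In Ago2-IP *FGFR1* was at 5.94, 8.97 and 4.35 RPKM in the same order of libraries. The *miR-195* library was thus high and the *miR-497* library low, with intervals that did not overlap with that of non-transfected cells.

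The PI3K subunits were at lower levels. *PIK3CA*, the catalytic subunit p110 alpha, was at 8.30, 7.57 and 6.96 RPKM in total RNA of non-transfected, *miR-195* and *miR-497* cells, and at 3.68, 4.10 and 3.42 RPKM in Ago2-IP. Of its 4 ratios to non-transfected cells, that of *miR-497* in total RNA, 0.840 (0.759 to 0.929), was the one with an interval apart from 1. *PIK3R1*, the regulatory subunit p85 alpha that stabilizes and restrains p110, was at 6.80, 4.86 and 4.95 RPKM in total RNA. Both mimic libraries were therefore low and close to each other, with ratios of 0.714 (0.656 to 0.778) and 0.728 (0.669 to 0.791). In Ago2-IP *PIK3R1* was at 2.64, 3.03 and 1.99 RPKM, with overlapping intervals for non-transfected and *miR-195* cells.

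Downstream of PI3K, *AKT1* and *SGK1* encode related kinases that phosphorylate overlapping substrates. *AKT1* was at 27.7, 30.9 and 41.7 RPKM in total RNA, so that it was highest with *miR-497*, at a ratio of 1.5 (1.42 to 1.59). In Ago2-IP the order of the mimics was the opposite, 4.35 RPKM in non-transfected cells, 9.79 under *miR-195* and 2.99 under *miR-497*. *SGK1*, a kinase induced by serum and glucocorticoids, was at 38.8, 32.9 and 28.9 RPKM in total RNA. Both mimic libraries were lower than the non-transfected one for *SGK1*, with ratios of 0.848 (0.810 to 0.887) and 0.744 (0.710 to 0.779). Its Ago2-IP levels were 19.3, 53.2 and 12 RPKM, the highest of the 7 genes in each of these libraries.

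In the ERK arm, *MAP2K1* encodes MEK1, which phosphorylates ERK, and *MAPK3* encodes ERK1, the last kinase of the cascade. *MAP2K1* was at 20.4, 16.6 and 17.8 RPKM in total RNA and at 3.56, 5.33 and 3.33 RPKM in Ago2-IP. *MAPK3* was at 15.7, 11.3 and 17.2 RPKM in total RNA, low with *miR-195* (ratio 0.721, 0.638 to 0.815), whereas the *miR-497* interval of 0.985 to 1.23 includes 1. In Ago2-IP *MAPK3* was at 1.52, 7.48 and 1.20 RPKM, from 38, 151 and 19 inferred reads, so that the *miR-195* library stood far above the others and the others overlapped.

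In total RNA no gene of the 7 reached a 2-fold difference with either mimic. Over all genes, 3.2% were at least 2-fold lower and 5.81% at least 2-fold higher with *miR-195*. For *miR-497* these shares were 2.11% and 6.67%. On the log2 scale, the ratio to non-transfected cells with *miR-195* was under 0 for 6 of 7 genes, with a median of -0.30 beside 0.02 for all 14740 genes scored. With *miR-497* it was under 0 for 4 of 7, with a median of -0.19 beside 0.09 over 14768 genes. The exception with *miR-195* was *AKT1* at 0.15, and those with *miR-497* were *AKT1* at 0.59, *MAPK3* at 0.13 and *FGFR1* at 0.01, which turns to -0.10 when each library is scaled by its median. The share of all genes under 0 was not determined. Against the all-gene medians, 6 of 7 genes were lower with *miR-195* and 5 of 7 with *miR-497*.

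Genes of different base composition did not shift alike in these libraries. When all genes were placed in 5 groups by the GC content of their canonical transcript, the median log2 change in total RNA under *miR-195* was -0.10 in the lowest GC group and 0.18 in the highest. Under *miR-497* the same medians were -0.23 and 0.60. The 7 genes span this range: *PIK3CA* had 35.7% GC and *PIK3R1* 40.1%, *SGK1* 46.9% and *MAP2K1* 51.2%, *FGFR1* 55.9%, *MAPK3* 61% and *AKT1* 61.2%. Each change was therefore also given relative to the median of its own GC group, a choice made after the medians by GC group had been seen.

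Relative to genes of like GC content, *AKT1* was at -0.02 under either mimic, and *PIK3CA* was at -0.03 under *miR-195* and at -0.02 under *miR-497*. These are the 2 genes without TGCTGCT, and each had an interval that includes the median of its GC group. The 5 genes with TGCTGCT were all lower than the median of their GC group with both mimics. *MAPK3* was at -0.65 under *miR-195* and -0.47 under *miR-497*, *FGFR1* at -0.42 and -0.31, *PIK3R1* at -0.38 and -0.23, *MAP2K1* at -0.30 and -0.26 and *SGK1* at -0.24 and -0.50. For *MAPK3*, *FGFR1*, *PIK3R1* and *SGK1*, the 4 of these with intervals, the interval lay under the median of the GC group in both comparisons. Both comparisons share the non-transfected library. The intervals hold counting error only, and the share of all genes with such an interval was not determined. Under *miR-195*, *MAPK3* was higher than 9.06% of the genes in its group, *FGFR1* than 13.45%, *PIK3R1* than 14.1% and *SGK1* than 24.3%. In the same order of genes, the shares under *miR-497* were 10.2%, 16.3%, 16.9% and 6.06%.

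The other genes of these pathways did not show this separation of genes with and without TGCTGCT. Of the 87 expressed genes on the pathway list that are not among the 7, the 36 with TGCTGCT had a median of 0.003 under *miR-195* and 0.02 under *miR-497* relative to their GC groups, and 18 and 17 of them lay under 0. The 51 without it had medians of -0.01 with both mimics. The 7 of them that carry TGCTGCTA were at -0.29 under *miR-195* and -0.10 under *miR-497* in the median, 5 of 7 under 0 in each comparison. Over all genes with TGCTGCT the medians were -0.07 and -0.03, and 57.2% and 55.5% lay under 0, beside 47.2% and 47.9% of the genes without it. Over all genes with TGCTGCTA the medians were -0.13 under *miR-195* and -0.07 under *miR-497*, and 61% and 61.1% lay under 0.

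**Figure D3:**
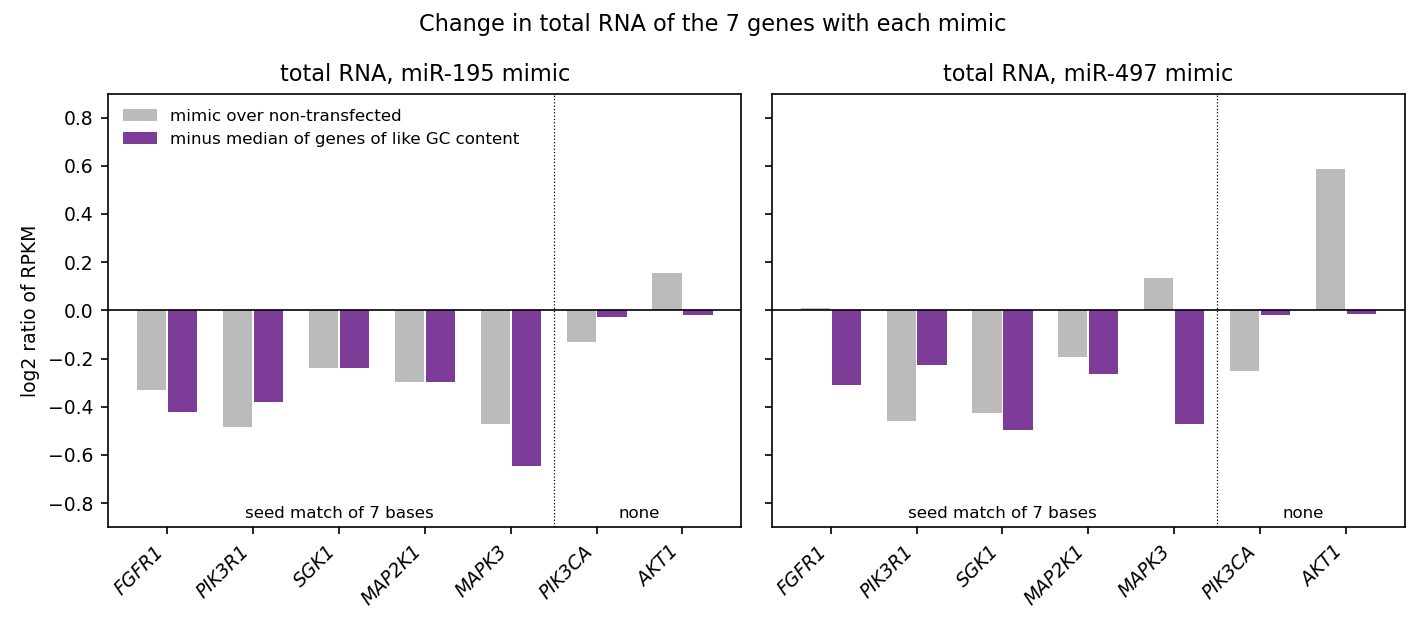
Log2 ratio of total RNA RPKM with each mimic over non-transfected cells for the 7 genes (grey), and the same minus the median of all genes in the same of 5 groups of transcript GC content (violet), with the 5 genes that carry TGCTGCT left of the dotted line. The violet bars run from -0.65 to -0.23 for the 5 genes and stay within -0.03 of 0 for *PIK3CA* and *AKT1*.

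In the Ago2-IP libraries of non-transfected cells all 7 genes had an RPKM at least 2-fold lower than in total RNA, as had 69.1% of all genes. Libraries were made with or without poly-A selection, which the methods do not assign, and its part in these ratios was not tested. The log2 ratio of Ago2-IP to total RNA ran from -1.01 for *SGK1* to -3.36 for *MAPK3*, around a median of -1.62 for all genes. *SGK1*, *PIK3CA* and *PIK3R1* had intervals above this median and *AKT1* and *MAPK3* under it. With *miR-195*, *SGK1* was the only gene of the 7 with more RPKM in Ago2-IP than in total RNA, at a ratio of 1.62 (1.54 to 1.7), and the ratio of *MAPK3* was 0.663 (0.549 to 0.797) there and 0.0973 (0.0681 to 0.135) without transfection. Scaling each library by its median removes the general offset and turns the ratio of *FGFR1*, *PIK3CA*, *PIK3R1* and *SGK1* in non-transfected cells to values above 1.

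With *miR-195*, 3 of 7 genes were at least 2-fold higher in Ago2-IP than without transfection, *MAPK3*, *SGK1* and *AKT1*, where 23.7% of all genes were. None of the 7 was 2-fold lower, beside 2.58% of all genes. The ratio was 4.91 (3.42 to 7.21) for *MAPK3*, 2.76 (2.58 to 2.95) for *SGK1* and 2.25 (1.90 to 2.68) for *AKT1*. The whole *miR-195* Ago2-IP library was shifted upwards, with a median log2 ratio of 0.48 for 14291 genes. Relative to that median, *MAPK3* was at 1.82, *SGK1* at 0.99 and *AKT1* at 0.70 on the log2 scale, *FGFR1* at 0.12 and *MAP2K1* at 0.11, and *PIK3R1* and *PIK3CA* were under it at -0.28 and -0.32. *MAPK3* was higher than 97.4% of scored genes and *SGK1* than 90.2%.

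Base composition moved with this comparison more than with *miR-497* in Ago2-IP. The median log2 ratio was 0.12 in the lowest GC group and 1.03 in the highest, where 52.3% of genes were at least 2-fold higher. Relative to its GC group *AKT1* was at 0.14, with an interval that includes the group median. *MAPK3* remained at 1.26 and *SGK1* at 1.0, higher than 94.8% and 94.0% of the genes in their groups, and *FGFR1*, *PIK3CA*, *PIK3R1* and *MAP2K1* lay between -0.15 and 0.12. *AKT1* and *MAPK3* have nearly the same GC content, 61.2% and 61%, and their Ago2-IP ratios of 2.25 and 4.91 had intervals that did not overlap.

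With *miR-497*, no gene of the 7 reached a 2-fold difference in Ago2-IP, while 6.27% of all genes were lower and 3.48% higher by that much. All 7 were lower than in non-transfected cells, as the library as a whole was, with a median log2 ratio of -0.23, and relative to that median *PIK3CA* and *MAP2K1* lay above it, by 0.12 and 0.13. The lowest was *SGK1*, at a ratio of 0.620 (0.558 to 0.688), and *FGFR1*, *PIK3R1* and *AKT1* also had intervals under 1, at 0.732 (0.635 to 0.843), 0.754 (0.615 to 0.921) and 0.688 (0.532 to 0.884). The ratio of *MAPK3*, 0.790, had an interval of 0.430 to 1.41, so a difference was not detectable at 19 and 38 reads. Against the median of all genes, the intervals of *SGK1* and *FGFR1* remained under it. Relative to its GC group *SGK1* was at -0.45 on the log2 scale, with an interval under the group median. *FGFR1* was at -0.14, with an interval that includes the median of its group.

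**Figure D4:**
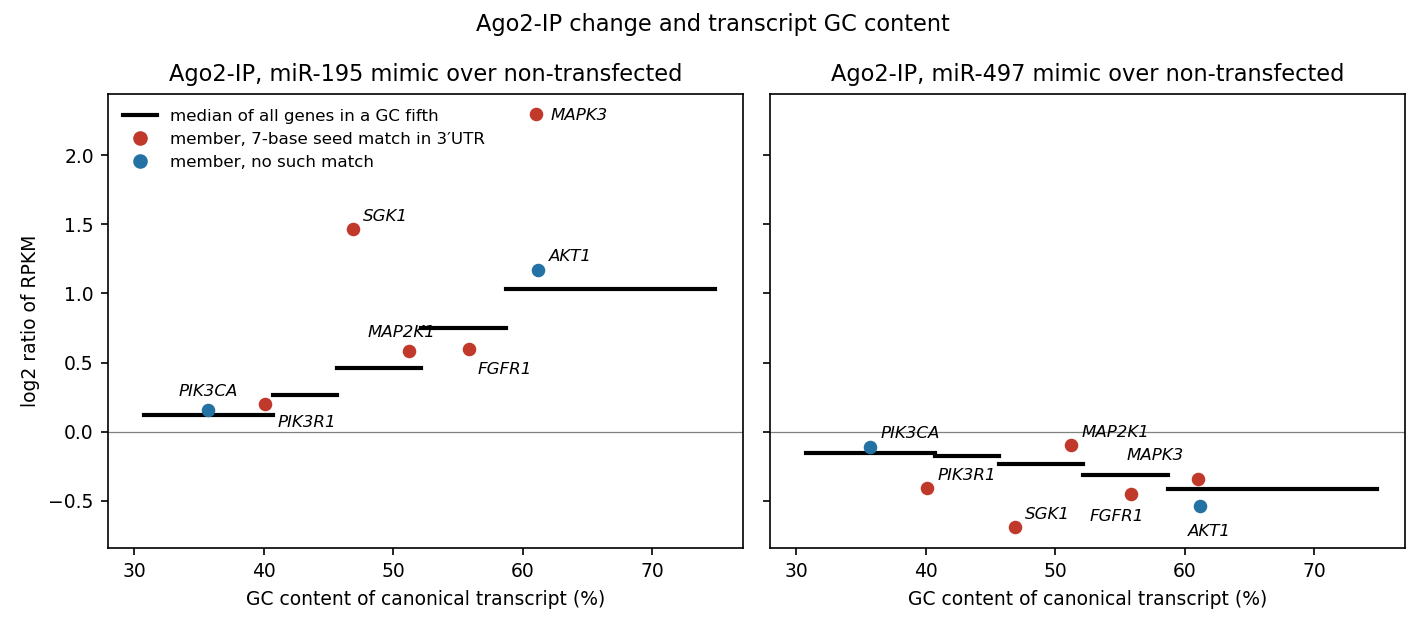
Log2 ratio of Ago2-IP RPKM with each mimic over non-transfected cells against the GC content of the canonical transcript (%), for the 7 genes (points) and as medians of all genes in 5 GC groups (black lines, drawn over the GC range of the genes scored with *miR-195*). *MAPK3* (2.30) and *SGK1* (1.46) lie far above the line of their group with *miR-195*, *AKT1* (1.17) lies near it, and with *miR-497* the lines run from -0.15 down to -0.41.

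The fold enrichment score divides the ratio of Ago2-IP to total RNA with a mimic by the same ratio without transfection, and is the study's measure of enrichment in Ago2-IP. With *miR-195* the score was above 1 for all 7 genes, but so was the all-gene median, and the share of all genes above 1 was not determined. The score was at least 2 for 3 of 7 where 20.4% of all genes reached that: *MAPK3* at 6.81 (4.68 to 9.92), *SGK1* at 3.25 (3.0 to 3.52) and *AKT1* at 2.02 (1.69 to 2.42). *FGFR1* followed at 1.90, *MAP2K1* at 1.84, *PIK3R1* at 1.61 and *PIK3CA* at 1.22, around an all-gene median of 1.38 that *PIK3CA* did not reach. The score of *AKT1* was under 2 with a pseudocount of 0.1 or 1, under scaling by library median and within the GC groups, which leaves 2 of 7. Relative to their GC groups on the log2 scale, *MAPK3* was at 1.93 and *SGK1* at 1.24, *PIK3R1* at 0.49, *MAP2K1* at 0.42 and *FGFR1* at 0.26. In these 5 GC groups the genes without TGCTGCT were nearest to the median, *AKT1* at 0.18 and *PIK3CA* at 0.09, both with intervals that include it. With finer GC groups this order did not hold, as *AKT1* was at 0.28 and *FGFR1* at 0.22. The score divides by the total RNA change, so genes low in total RNA score higher and the order is not separate evidence. In Ago2-IP alone, relative to their GC groups, *FGFR1* was at -0.15, *PIK3R1* at 0.08 and *MAP2K1* at 0.12. On that measure *AKT1* was at 0.14 and *PIK3CA* at 0.03, with *MAPK3* at 1.26 and *SGK1* at 1.0.

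With *miR-497* the scores were lower. *AKT1*, at 0.457 (0.356 to 0.589), was the only gene of the 7 at or under 0.5, where 16.3% of all genes were, and 48.7% of the genes in its GC group. Relative to that group *AKT1* was at -0.14 on the log2 scale. *PIK3CA* had a score of 1.10, *MAP2K1* 1.07, *PIK3R1* 1.04, *SGK1* 0.834, *FGFR1* 0.727 and *MAPK3* 0.719 (0.411 to 1.26), around an all-gene median of 0.824. Relative to their GC groups *MAPK3* was at 0.51 and *SGK1* at 0.003 on the log2 scale with *miR-497*, beside 1.93 and 1.24 with *miR-195*, and with *miR-497* both intervals include the group median. On the same scale *MAP2K1* was at 0.36, *FGFR1* at 0.12, *PIK3CA* at 0.05 and *PIK3R1* at -0.04 with *miR-497*. The genes without TGCTGCT were therefore not the nearest to their groups with this mimic. The call of *AKT1* ended with a pseudocount of 1, under scaling by library median and within the GC groups.

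The mimic libraries were also set against each other, without the non-transfected libraries, a comparison added after the data had been seen. In Ago2-IP 4 of 7 genes were at least 2-fold higher with *miR-195* than with *miR-497*, beside 35.3% of all genes. The ratio was 6.22 (3.85 to 10.6) for *MAPK3*, 4.45 (4.05 to 4.90) for *SGK1*, 3.28 (2.60 to 4.16) for *AKT1* and 2.06 (1.80 to 2.37) for *FGFR1*. Relative to their GC groups *SGK1* was at 1.47 and *MAPK3* at 1.18 on the log2 scale, while *AKT1* was at 0.26 and *FGFR1* at -0.04, and the intervals of both include the median of their group. In total RNA none of the 7 differed by 2-fold between the mimics, where 3.64% of all genes were lower with *miR-195* and 3.12% higher. The lowest ratio there was that of *MAPK3*, 0.657 (0.586 to 0.736), and *SGK1* alone had an interval above 1, at 1.14 (1.09 to 1.19).

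The nearest relatives of the 7 genes were measured in the same libraries. Of the other FGF receptors, *FGFR4*, the main receptor of hepatocytes, was at 45.1, 19.4 and 46.4 RPKM in total RNA of non-transfected, *miR-195* and *miR-497* cells, so that the *miR-195* level was low by -1.21 on the log2 scale. *FGFR3* was at 12.9, 9.54 and 14.8 RPKM, lowest with *miR-195* as *FGFR1* was, and *FGFR2* was listed at 0 in non-transfected and *miR-195* total RNA. Among PI3K subunits, *PIK3CB* (p110 beta) was at 18.7, 21.2 and 17.1 RPKM, above *PIK3CA*, and *PIK3R2* (p85 beta) was at 16.4, 13.7 and 25.2 RPKM. *PIK3R3*, a further regulatory subunit, carries TGCTGCTA and was higher with both mimics, at 1.79, 6.71 and 4.83 RPKM.

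*AKT2* was at 9.89, 10.9 and 14.7 RPKM, again highest with *miR-497* as *AKT1* was. *SGK2* was at 12.7, 13.7 and 16.3 RPKM and *SGK3* at 8.21, 7.58 and 6.68 RPKM. In the ERK cascade *ARAF* was at 10.1, 8.60 and 11.9 RPKM, and *BRAF* at 3.83, 3.56 and 3.29. *MAP2K2*, which encodes MEK2, was at 21.8, 24.5 and 34.4 RPKM. Relative to their GC groups, the changes of relatives with and without TGCTGCT overlapped. Without it, *ARAF* was at -0.40 under *miR-195* and -0.36 under *miR-497*, and *MAP2K2* at -0.008 and 0.05. With it, *FGFR4* was at -1.39 and -0.56 and *FGFR3* at -0.61 and -0.40. Also with it, *PIK3CB* was at 0.28 and 0.10 and *AKT2* at 0.05 and 0.25. *PIK3R2*, with TGCTGCT, was at -0.44 and 0.01. With TGCTGCTA, *BRAF* was at -0.05 and -0.10 and *PIK3R3* at 1.90 and 1.55. *SGK2*, without TGCTGCT, was at 0.11 and 0.29 and *SGK3*, also without it, at -0.01 and -0.06. *RPS6KA3*, the ERK-activated kinase RSK2, was at 142, 51.6 and 68.4 RPKM, low with both mimics by -1.47 and -1.06 on the log2 scale.

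The pathway list holds 129 genes, from FGF ligands to mTOR and its substrates, all of which had a row. In non-transfected total RNA 94 reached 1 RPKM, among them 4 of 25 FGF ligands and co-receptors, so that transcripts of most ligands were at or near 0. Of the 87 expressed genes besides the 7, 2 were at least 2-fold lower and 1 higher in total RNA with *miR-195* (*FGFR4* and *RPS6KA3*, and *PIK3R3*), and 1 lower and 1 higher with *miR-497* (*RPS6KA3*, and *PIK3R3*). In Ago2-IP 20 of the 87 were at least 2-fold higher with *miR-195*, near the 23.7% of all genes, and none lower, and with *miR-497* 5 were lower, near the 6.27% of all genes, and none higher. The fold enrichment score was at least 2 for 19 of the 87 with *miR-195*, beside 20.4% of all genes, and at most 0.5 for 10 of them with *miR-497*, beside 16.3%. Their median log2 change in total RNA was 0.05 under *miR-195* and 0.04 under *miR-497*. In Ago2-IP it was 0.56 and -0.27, beside 0.48 and -0.23 for all genes.

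Profiles over the 6 libraries, as log2 RPKM centred on each gene's own mean, placed *PIK3CA* and *PIK3R1* closest among the 7, at a Euclidean distance of 0.381, and *AKT1* and *SGK1* farthest apart, at 2.79. Over 8582 genes with at least 1 RPKM in all libraries, the profile most like that of *PIK3CA* was *ATE1* (0.0861), of *PIK3R1* *KBTBD2* (0.0869), of *AKT1* *RPS6KB2* (0.116), of *MAP2K1* *PM20D2* (0.133) and of *FGFR1* *ST3GAL1* (0.165). *MAPK3* and *SGK1* had less similar neighbors, *EEF1G* at 0.310 and *CTDSPL* at 0.387. *CTDSPL* was at 12.2, 32.8 and 8.55 RPKM in Ago2-IP of non-transfected, *miR-195* and *miR-497* cells, and *EEF1G* at 12.1, 65.6 and 11.6. Their order, highest with *miR-195* and lowest with *miR-497*, was that of all 7 genes and of the Ago2-IP library medians. In total RNA *CTDSPL* was at 20.75, 23.89 and 20.61 RPKM, highest with *miR-195*, whereas *SGK1* was lower with both mimics.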

How the data were processed

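Total RNA and Ago2-IP RNA of Hep G2 cells were sequenced as 36-base single reads. The authors aligned them to hg19 with ELANDv2 and deposited gene levels as RPKM from CASAVA 1.7, used here without further normalization. The annotation and the assignment of poly-A selection to libraries are not given in the sources used here. All 6 value columns were matched, with 0 left over, and the 28 symbols on more than 1 line, none of them a member, were averaged.

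The members were taken by symbol. Members, pathway list and naming rule were set with earlier results of these data known to exist. The members and the list were not chosen by how the genes moved. The rule names the members, their nearest relatives, pathway genes whose total RNA changed by 2-fold relative to the median, the gene of the nearest profile and *EIF2C2*. Some of these genes are not reported here. Ratios were formed for genes above 0 in all libraries of a comparison, without pseudocount, and called at 2-fold.

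Whole read numbers were inferred for 14202 of 15487 genes (91.7%, within 0.02 reads of a whole number) and tested on simulated data. Intervals were exact Poisson for levels, Clopper-Pearson for ratios and log-normal for scores. Sites were read from GENCODE 44 on GRCh37, where 18396 symbols matched a protein-coding gene. GC groups are 5 equal groups of the genes scored in a comparison, by canonical transcript GC content. Alternatives were pseudocounts of 0.1 and 1, a minimum of 1 RPKM, scaling by library median, a 1.5-fold threshold and, added after seeing the data, GC groups and the direct comparison of the mimics. Tools were scipy 1.17.1, pandas 2.3.3, pysam 0.24.0, numpy 2.4.6 and matplotlib 3.10.9 under Python 3.11.15.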

Additional observations from a re-analysis of the deposited data

Results flagged for a closer look

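In 4 cases a gene lay on one side of non-transfected cells in total RNA and on the other in Ago2-IP, with counting intervals apart from 1 on both sides. With *miR-195* these were *MAPK3*, whose log2 ratio in Ago2-IP exceeded that in total RNA by 2.77, *SGK1*, by 1.7, and *FGFR1*, by 0.93. With *miR-497* it was *AKT1*, lower in Ago2-IP and higher in total RNA, a difference of -1.13. With 1 library per group these differences were not tested, and the share of all genes that meet this rule was not determined. The all-gene medians of the same difference were 0.47 under *miR-195* and -0.28 under *miR-497*. Relative to genes of like GC content the opposite sides were lost in 2 of the 4 cases: *FGFR1* with *miR-195* was at -0.42 in total RNA and -0.15 in Ago2-IP, and *AKT1* with *miR-497* at -0.02 and -0.13. *MAPK3* was at -0.65 and 1.26 and *SGK1* at -0.24 and 1.0 with *miR-195*.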

How the results depend on the processing

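Of the 7 genes' log2 values under 9 comparisons, 63 in all, each stayed within its counting interval (for *MAP2K1*, a width approximated from its annotated length) under a pseudocount of 0.1 and under a minimum of 1 RPKM, and 56 did so under a pseudocount of 1. Scaling by library median moved 36 and reversed 4 of those past 2-fold, and centring within GC groups moved 36 and reversed 5. Among values under 2-fold, the sign changed for 12 under scaling and 13 under GC groups. The reversed values were Ago2-IP over total RNA in non-transfected cells, on the log2 scale 0.12 and 0.33 (scaling and GC groups) for *FGFR1*, 0.47 and 0.43 for *PIK3CA*, 0.27 and 0.24 for *PIK3R1* and 0.63 and 0.62 for *SGK1*, and *FGFR1* between the mimics in Ago2-IP, -0.037 within GC groups. Of the 108 counts of genes past the threshold, 96 remained within 1.5 times. Scaling left 1 of 3 genes higher in Ago2-IP with *miR-195*, 0 of 1 with a low *miR-497* score, 2 of 7 low in Ago2-IP over total RNA and 2 of 4 higher between the mimics in Ago2-IP. The GC groups left 0, 1 and 2 of the last 3, and a pseudocount of 1 left 0 low *miR-497* scores. At 1.5-fold, the count became 1 for genes higher in total RNA with *miR-497*, 1 for genes lower in Ago2-IP with *miR-497*, 6 for *miR-195* scores (at 2-fold, 2 in place of 3 with either pseudocount, scaling or GC groups) and 1 for genes lower in total RNA with *miR-195* than with *miR-497*, where 19.1%, 19.1%, 41.8% and 11% of all genes were called. The cause was not tested.

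No paired analysis was possible because each group has 1 library. For the same reason no replicate was left out. Depth limits *MAPK3* most, with 19 to 151 inferred reads in the Ago2-IP libraries.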
